A study of Mus musculus with 6 samples.

Results

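The 10 genes described here belong to the ATF4 and unfolded protein stress responses: the transcription factor genes *Atf4*, *Ddit3*, *Atf3* and *Xbp1*, the ATF4 target genes *Chac1*, *Trib3* and *Asns*, and the endoplasmic reticulum (ER) genes *Hspa5*, *Herpud1* and *Dnajb9*. They were taken by gene name from the 54167 genes of the deposited table, in which 11 entries carry these names. They were compared between colorectal tumors of mice with intact *Trp53* and of mice with *Trp53* deleted in the intestinal epithelium. None of the 10 passed the test for a difference between the genotypes, which 0.165% of all genes tested passed after adjustment, and their log2 fold changes ran from -0.38 (*Dnajb9*) to 0.60 (*Trib3*). A single *VP* tumor held the highest level of 5 of them, and of 13.9% of all genes tested. A single *Trp53fl/fl* tumor held the lowest level of 5, and of 11.2% of all genes tested. Both tumors were singled out with their values known.

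RNA was sequenced from 6 colorectal tumors of C57BL/6J mice, 3 from *Trp53fl/fl* mice and 3 from *VP* mice. *Trp53fl/fl* mice carry loxP-flanked *Trp53* alleles without Cre, and *VP* mice carry the same alleles with *Pvillin-Cre*, whose villin promoter is active in intestinal epithelium, so that *Trp53* in other cells of the tumor is spared. Mice of both groups were male, started at 8 weeks of age and received azoxymethane (AOM, 10 mg/kg), a carcinogen, then repeated 7-day cycles of 2.5% dextran sulfate sodium (DSS), which injures the colon lining, with tumors evaluated on day 98. The values are TPM, which are scaled for transcript length and to the same total in each tumor, so that levels of different genes can be set side by side but the number of reads behind a value is unknown. *Trp53* lay between 99.3 and 147 TPM in *Trp53fl/fl* tumors and between 27.8 and 38.5 TPM in *VP* tumors (log2 fold change -1.87, limma adjusted p = 0.0207), in the direction the labels give. The epithelial markers *Epcam* and *Cdh1* were abundant in every tumor, at 1159 to 1526 TPM and 365 to 467 TPM. In whole tumors, fewer cells of a type and less RNA per cell cannot be told apart.

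Proteins that misfold in the ER are sensed by PERK, IRE1 and ATF6. PERK, like the amino acid sensor GCN2, phosphorylates the translation factor eIF2alpha, which lowers protein synthesis in general but favours translation of ATF4, a factor that switches on genes for amino acid supply and, under lasting stress, CHOP (*Ddit3*) and its partners. IRE1 splices the *Xbp1* transcript into the form that encodes the active factor, and ATF6 and XBP1 raise the genes of ER chaperones and of the degradation machinery. In the colon this system is known for its role in cells with a heavy secretory load, such as goblet and plasma cells. ATF4 is controlled largely at translation and XBP1 by splicing, neither of which is visible in a TPM per gene.

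Short control sequences near the starts of 6 of the 10 genes are shown because they are the elements through which ATF4 and the ER stress factors are known to act. In RefSeq windows (GRCm38.p6) from 250 bases before to 50 bases after the transcription start, which all 10 genes have, both strands were searched for the core of the C/EBP-ATF response element bound by ATF4 (TGATGNAA, where N is any base), the ER stress response element ERSE (CCAAT, any 9 bases, then CCACG), ERSE-II (ATTGG, any base, then CCACG), the UPRE bound by XBP1 (TGACGTGG) and the cyclic AMP response element (TGACGTCA). The C/EBP-ATF core was found at 5 of the 10 genes, *Chac1*, *Trib3*, *Asns*, *Atf3* and *Herpud1*, and at 4.51% of the 27025 genes with a window. ERSE was found at *Hspa5* and at 0.137% of all genes, and ERSE-II at *Herpud1* and at 0.0444% of all genes. The UPRE and the cyclic AMP response element, at 0.714% and 2.03% of all genes, were at none of the 10, and *Atf4*, *Ddit3*, *Xbp1* and *Dnajb9* held no match to any of these motifs. Starts here are those of RefSeq, and for the 6 genes shown they differ from the gene starts in the GENCODE coordinates given further below. Against the GENCODE starts, the match of *Trib3* lies before the start, and those of *Asns*, *Atf3* and *Hspa5* lie after it. Capitals mark the matches in the sequences that follow, which are written 5′ to 3′ on the strand of the gene.
Chac1, chr2:119351042-119351228, plus strand, C/EBP-ATF core read on the other strand: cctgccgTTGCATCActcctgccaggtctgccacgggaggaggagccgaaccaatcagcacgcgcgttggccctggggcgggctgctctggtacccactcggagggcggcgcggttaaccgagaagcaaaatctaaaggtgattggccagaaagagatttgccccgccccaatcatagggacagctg
Trib3, chr2:152344028-152344057, minus strand, C/EBP-ATF core read on the other strand, just after the start: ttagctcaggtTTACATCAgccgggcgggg
Asns, chr6:7693214-7693243, minus strand, C/EBP-ATF core read on the strand of the gene: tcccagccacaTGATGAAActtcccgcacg
Atf3, chr1:191183425-191183454, minus strand, C/EBP-ATF core read on the other strand: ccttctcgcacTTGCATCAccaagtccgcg
Herpud1, chr8:94386229-94386428, plus strand, C/EBP-ATF core read on the other strand, then ERSE-II: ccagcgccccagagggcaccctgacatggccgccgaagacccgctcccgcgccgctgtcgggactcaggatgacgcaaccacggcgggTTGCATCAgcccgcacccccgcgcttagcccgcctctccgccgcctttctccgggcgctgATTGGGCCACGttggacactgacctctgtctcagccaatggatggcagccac
Hspa5, chr2:34772020-34772049, plus strand, ERSE: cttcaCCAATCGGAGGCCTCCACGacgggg
*Herpud1* was the one gene of the 10 with both a C/EBP-ATF core and an ER stress element. A match of letters describes the sequence and does not show that a factor was bound.

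The same searches were run over the lists of the wider pathway, with no test between lists. Among the genes with a window, the C/EBP-ATF core was found at 5 of 8 aminoacyl-tRNA synthetases (*Aars*, *Gars*, *Iars*, *Tars* and *Yars*), at 4 of 15 amino acid transporters and synthesis enzymes (*Got1*, *Pycr1*, *Slc1a4* and *Slc7a11*), at 4 of 15 ATF4 partners and stress-induced regulators (*Fgf21*, *Jdp2*, *Nupr1* and *Vldlr*) and at 1 of 16 ER chaperones and folding enzymes (*Txndc5*). It was at 0 of 10 sensors, 0 of 20 genes of ER-associated degradation and translocation and 0 of 12 immediate early genes. ERSE was found at 7 of the 16 chaperones and folding enzymes, at 2 of the 20 degradation and translocation genes (*Derl3* and *Syvn1*) and at none of the other lists. ERSE-II was at 1 of the 16 chaperones (*Dnajb11*). The UPRE was at 3 of the 20 degradation and translocation genes (*Sec24d*, *Ube2j1* and *Vcp*). It was also at 1 of the 15 partners and regulators (*Nfe2l1*) and 1 of the 16 chaperones (*Txndc5*). The cyclic AMP response element was at 1 of the 10 sensors (*Ppp1r15a*) and 1 of the 12 immediate early genes (*Dusp1*).

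All 10 genes passed the expression filter of at least 1 TPM in at least 3 tumors. The eleventh entry is a second *Ddit3* (ENSMUSG00000116429), which overlaps the first in the annotation and was listed at 0 in every tumor. Over the 6 tumors of both genotypes the order of mean levels was *Hspa5* (326 TPM), *Xbp1* (172 TPM), *Atf4* (150.2 TPM), *Herpud1* (115 TPM), *Asns* (45.0 TPM), *Atf3* (30.5 TPM), *Dnajb9* (22.1 TPM), *Ddit3* (16.6 TPM), *Chac1* (3.998 TPM) and *Trib3* (2.93 TPM). The chaperone *Hspa5* was above *Xbp1*, *Herpud1* above *Asns*, and *Ddit3* above *Chac1* without overlap of their ranges, whereas the ranges of all other neighbours in this order overlapped. The factor genes *Xbp1* and *Atf4* were thus abundant, and the late ATF4 targets *Chac1* and *Trib3* were near the filter.

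**Figure D1:**
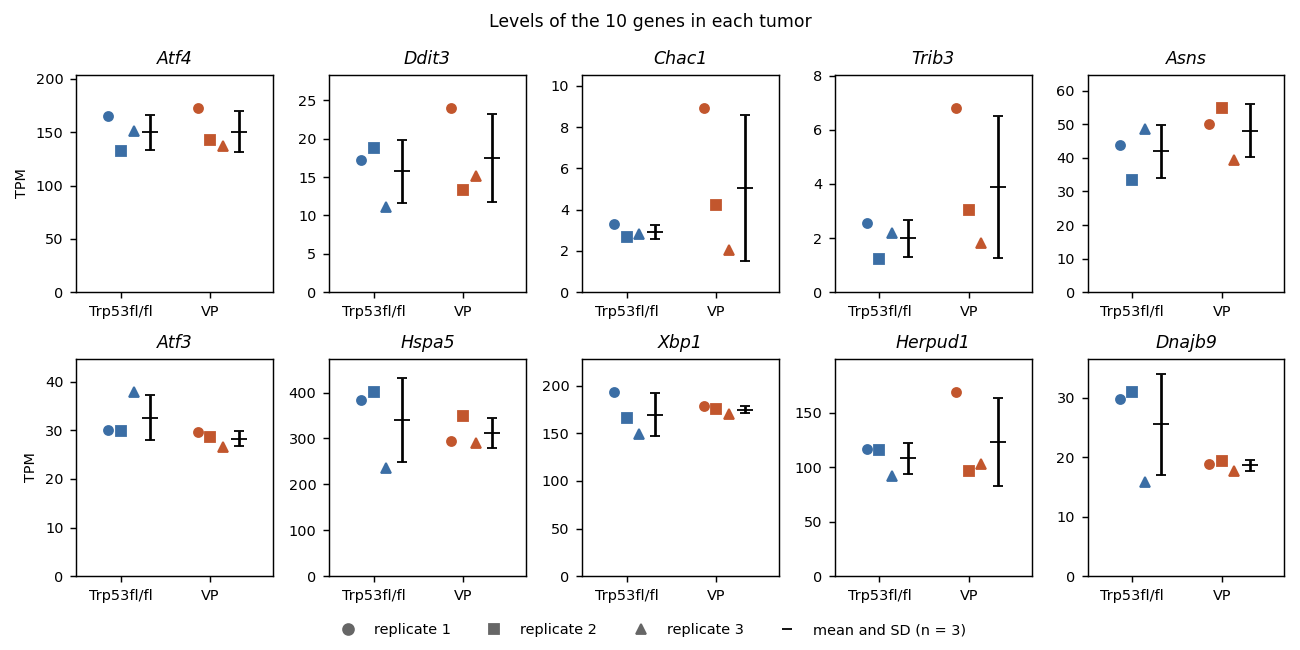
TPM of the 10 genes in each of the 6 tumors, 1 panel per gene with its own linear axis from 0; blue marks are *Trp53fl/fl* and orange marks *VP* tumors, shapes give the replicate, and black bars the mean and SD (n = 3). *VP* replicate 1 stands above the other 5 tumors for *Ddit3*, *Chac1*, *Trib3* and *Herpud1*, and *Trp53fl/fl* replicate 3 lies below its own group for *Hspa5* and *Dnajb9*.

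*Atf4* (ENSMUSG00000042406, chromosome 15 from 80255184 to 80257541 in GENCODE M21 on GRCm38, as for all coordinates of genes here) is the central factor of the integrated stress response. The *Trp53fl/fl* tumors had 166, 132 and 152 TPM, and the *VP* tumors 173, 142 and 137 TPM. The groups overlapped fully, with means of 149.7 ± 16.8 and 151 ± 19.6 TPM (SD, n = 3 each). The log2 fold change, taken here and below on log2(TPM + 1) as *VP* minus *Trp53fl/fl*, was 0.01 with a 95% interval from -0.31 to 0.33 (limma adjusted p = 0.989).

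*Ddit3* (ENSMUSG00000025408, chromosome 10 from 127290774 to 127296288) encodes CHOP, a factor that promotes cell death under lasting ER stress. It was at 17.2, 18.8 and 11.1 TPM in *Trp53fl/fl* tumors and at 24.02, 13.3 and 15.2 TPM in *VP* tumors. *VP* replicate 1 was the highest and *Trp53fl/fl* replicate 3 the lowest of the 6. Of the other 4, both *Trp53fl/fl* tumors were above both *VP* tumors. Over all 6 tumors the log2 fold change was 0.13 (95% interval -0.50 to 0.77, limma adjusted p = 0.847), and it turned to -0.11 without *VP* replicate 1 and to -0.08 without *Trp53fl/fl* replicate 3.

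*Atf3* (ENSMUSG00000026628, chromosome 1 from 191170296 to 191218039) is induced by ATF4 and is also an immediate early gene. It was at 29.99, 29.9 and 37.9 TPM in *Trp53fl/fl* tumors and at 29.6, 28.7 and 26.7 TPM in *VP* tumors. It was the one gene of the 10 whose genotypes did not overlap, while 19.3% of all genes tested did not overlap. The gap between the lowest *Trp53fl/fl* and the highest *VP* tumor was small beside the spread, and the log2 fold change of -0.19 (95% interval -0.50 to 0.12, limma adjusted p = 0.558) did not pass. Without *Trp53fl/fl* replicate 3, the highest tumor, it was -0.08.

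*Xbp1* (ENSMUSG00000020484, chromosome 11 from 5520659 to 5525893) was at 194, 166 and 149 TPM in *Trp53fl/fl* tumors and at 178, 176 and 171 TPM in *VP* tumors. The *VP* tumors lay close together, inside the range of the *Trp53fl/fl* tumors. This gave a log2 fold change of 0.05 (95% interval -0.23 to 0.33, limma adjusted p = 0.868).

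Among the ATF4 targets, *Chac1* (ENSMUSG00000027313, chromosome 2 from 119351229 to 119354381), which encodes a glutathione-degrading enzyme, was at 3.32, 2.67 and 2.80 TPM in *Trp53fl/fl* tumors and at 8.94, 4.23 and 2.03 TPM in *VP* tumors. The *VP* tumors held both the highest and the lowest value of the 6. Its log2 fold change of 0.46 (95% interval -0.48 to 1.41, limma adjusted p = 0.638) fell to 0.02 without *VP* replicate 1 and rose to 0.88 without *VP* replicate 3 (limma adjusted p = 0.333).

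*Trib3* (ENSMUSG00000032715, chromosome 2 from 152337422 to 152344032), which encodes a pseudokinase that binds AKT and restrains ATF4, was at 2.54, 1.24 and 2.17 TPM in *Trp53fl/fl* tumors and at 6.81, 3.03 and 1.80 TPM in *VP* tumors. It showed the same ranking of the *VP* tumors as *Chac1*, with replicate 1 highest and replicate 3 lowest. Its log2 fold change of 0.60 was the largest of the 10, with a 95% interval from -0.31 to 1.52 (limma adjusted p = 0.534), and it was 0.20 without *VP* replicate 1, 0.41 without *Trp53fl/fl* replicate 2 and 0.94 without *VP* replicate 3.

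*Asns* (ENSMUSG00000029752, chromosome 6 from 7675169 to 7693254), which encodes asparagine synthetase, was at 43.7, 33.4 and 48.6 TPM in *Trp53fl/fl* tumors and at 50.02, 54.9 and 39.4 TPM in *VP* tumors. The *VP* tumors held the top of the range, but *VP* replicate 3 was below 2 *Trp53fl/fl* tumors. Its log2 fold change was 0.20 (95% interval -0.23 to 0.63, limma adjusted p = 0.658), and leaving out *VP* replicate 3 (0.33) or *Trp53fl/fl* replicate 2 (0.05) moved it most. Unlike *Chac1* and *Trib3*, *Asns* was not set apart in *VP* replicate 1, where it was 1.06 times the mean of the other *VP* tumors, against 2.86 times for *Chac1* and 2.82 times for *Trib3*.

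In the ER arm, *Hspa5* (ENSMUSG00000026864, chromosome 2 from 34771970 to 34777547) encodes BiP, the main chaperone of the ER lumen. It was at 384, 402 and 235 TPM in *Trp53fl/fl* tumors and at 294, 349 and 291 TPM in *VP* tumors. The *VP* tumors fell between the extremes set by the *Trp53fl/fl* tumors. On the log2 scale *VP* tumors differed by -0.09 (95% interval -0.60 to 0.41, limma adjusted p = 0.872), a value that became -0.34 without *Trp53fl/fl* replicate 3 (limma adjusted p = 0.291) and 0.05 without *Trp53fl/fl* replicate 2.

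*Dnajb9* (ENSMUSG00000014905, chromosome 12 from 44205559 to 44210326) encodes ERdj4, a co-chaperone of BiP that is a target of XBP1. It was at 29.8, 31.0 and 15.8 TPM in *Trp53fl/fl* tumors and at 19.0, 19.4 and 17.7 TPM in *VP* tumors. The *VP* tumors were tight, 2 *Trp53fl/fl* tumors were above them and *Trp53fl/fl* replicate 3 was below them. A log2 fold change of -0.38 (95% interval -0.96 to 0.21, limma adjusted p = 0.545) was the lowest of the 10. It was -0.68 without *Trp53fl/fl* replicate 3 (limma adjusted p = 0.171) and -0.21 without *Trp53fl/fl* replicate 2.

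*Herpud1* (ENSMUSG00000031770, chromosome 8 from 94386438 to 94395377) encodes an ER membrane protein of the degradation machinery. It was at 117, 116 and 91.6 TPM in *Trp53fl/fl* tumors and at 169, 96.6 and 103 TPM in *VP* tumors. *VP* replicate 1 stood alone at the top, and the other *VP* tumors lay inside the *Trp53fl/fl* range. With it, the log2 fold change was 0.15 (95% interval -0.39 to 0.68, limma adjusted p = 0.801), and it turned to -0.11 without *VP* replicate 1.

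Across the 10 genes, 0 had a limma adjusted p-value under 0.05 and 0 an unadjusted p-value under 0.05, while 0.165% and 12.5% of the 15117 genes tested did. Of the 10 log2 fold changes 7 were above 0 and 3 below, with a median of 0.09, against a median of -0.07 over all genes tested. The median of the 10 turned to -0.07 without *VP* replicate 1 and to -0.009 without *Trp53fl/fl* replicate 3. The intervals are wide: for *Chac1* and *Trib3* they include a doubling of TPM + 1 in *VP* tumors, and for *Atf4* and *Xbp1* they stay between -0.31 and 0.33 on the log2 scale. The spread between tumors of 1 genotype also differed among the genes. It was 0.61 for *Chac1*, 0.58 for *Trib3* and 0.40 for *Ddit3* (SD of log2(TPM + 1) within genotypes), and 0.17 for *Atf4*, 0.14 for *Atf3* and 0.14 for *Xbp1*, where the median of all genes tested was 0.21.

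**Figure D2:**
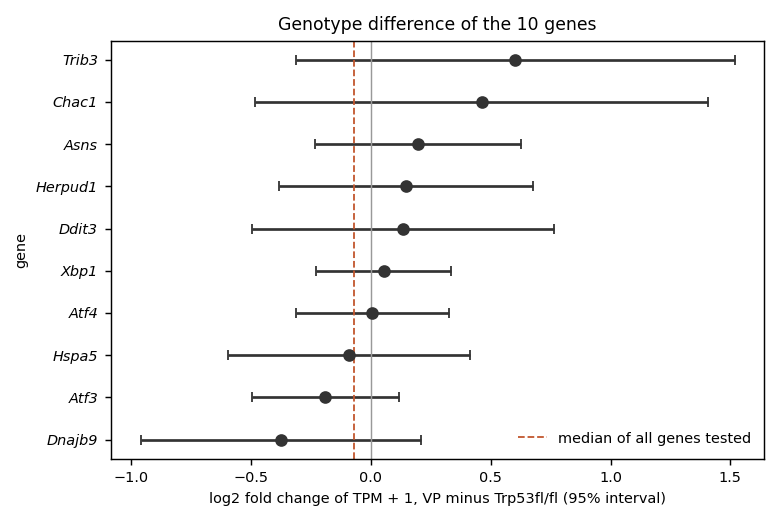
Log2 fold change of TPM + 1 (horizontal axis, *VP* minus *Trp53fl/fl*) of the 10 genes, with 95% intervals from limma; the dashed line is the median of all genes tested (-0.07). Every interval includes 0, from *Dnajb9* at -0.38 to *Trib3* at 0.60.

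Set against the mean of each gene over the 6 tumors, the genes fell into patterns that followed tumors. *VP* replicate 1 held the highest level of 5 of the 10 genes (*Atf4*, *Ddit3*, *Chac1*, *Trib3* and *Herpud1*), and of 13.9% of all genes tested. In that tumor *Chac1* and *Trib3* were each 1.11 above their means on the log2 scale, *Herpud1* 0.58 and *Ddit3* 0.55, whereas *Hspa5* was 0.12 and *Dnajb9* 0.17 under theirs. *Trp53fl/fl* replicate 3 held the lowest level of 5 genes (*Ddit3*, *Hspa5*, *Xbp1*, *Herpud1* and *Dnajb9*), and of 11.2% of all genes tested. There *Hspa5* was 0.598 times and *Dnajb9* 0.520 times the mean of the other 2 *Trp53fl/fl* tumors, while *Atf4*, *Asns* and *Atf3* were 1.02, 1.26 and 1.27 times theirs. The tumor with the highest *Chac1* and *Trib3* was thus not the tumor with the lowest *Hspa5* and *Dnajb9*.

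**Figure D3:**
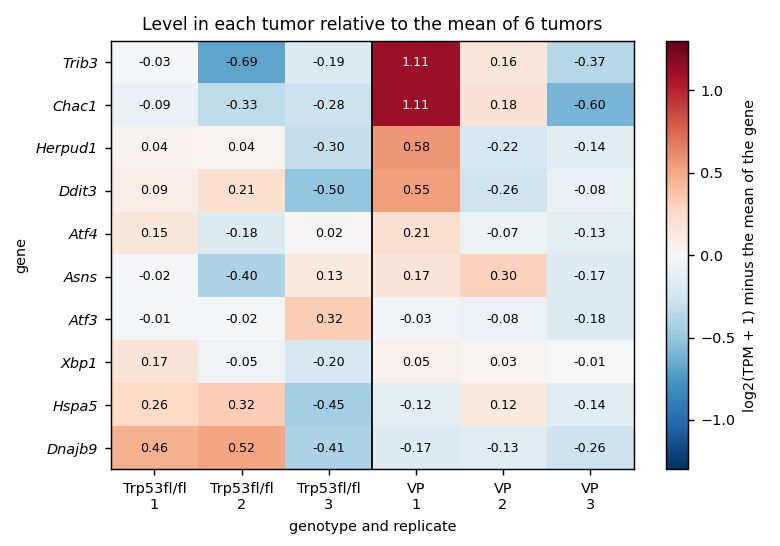
Log2(TPM + 1) of each gene minus its mean over the 6 tumors (colour and printed value), with tumors in columns and the genotypes divided by a line. *Trib3*, *Chac1*, *Herpud1* and *Ddit3* are highest in *VP* replicate 1 (0.55 to 1.11), and *Hspa5* and *Dnajb9* are lowest in *Trp53fl/fl* replicate 3 (-0.45 and -0.41).

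Ratios between the genes within a tumor, taken on TPM + 1, depend little on the scaling of that tumor to a fixed total, and 5 were compared. The log2 ratio of *Dnajb9* to *Hspa5* was -3.64, -3.65 and -3.81 in *Trp53fl/fl* tumors and -3.89, -4.10 and -3.97 in *VP* tumors. Every *VP* tumor was below every *Trp53fl/fl* tumor, including *Trp53fl/fl* replicate 3, in which both genes were low. The difference was -0.28, with means of -3.701 ± 0.0938 and -3.985 ± 0.107 (SD, n = 3 each). A two-sided exact permutation test gave p = 0.1, which is the lowest value that 3 tumors against 3 can reach, and 0.5 after Benjamini-Hochberg adjustment over the 5 ratios. Without *VP* replicate 2 the difference was -0.23 (exact permutation p = 0.2).

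The ratio of *Herpud1* to *Hspa5* overlapped between the genotypes (difference 0.24, exact permutation test, two-sided, p = 0.7), and its difference turned to -0.05 without *VP* replicate 1. The ratio of *Ddit3* to *Atf4* differed by 0.13, that of *Asns* to *Atf4* by 0.19 and that of *Xbp1* to *Atf4* by 0.05 (exact permutation tests, two-sided, p = 0.8, 0.4 and 0.7), and the adjusted values of these 4 ratios were all 0.8. The *Asns* difference was 0.05 without *VP* replicate 2 and 0.29 without *Trp53fl/fl* replicate 3. The sign of the *Ddit3* ratio changed without *VP* replicate 1 (-0.01) or *Trp53fl/fl* replicate 3 (-0.10), and that of the *Xbp1* ratio without *Trp53fl/fl* replicate 3 (-0.05) or *VP* replicate 3 (-0.0026).

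**Figure D4:**
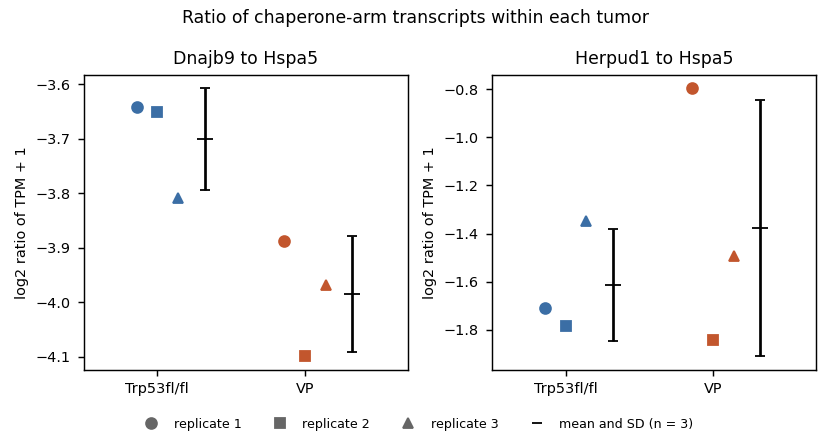
Log2 ratio of TPM + 1 of *Dnajb9* to *Hspa5* (left) and of *Herpud1* to *Hspa5* (right) in each tumor, with the mean and SD (n = 3) in black; the axes do not start at 0. The *Dnajb9* ratios of the genotypes do not overlap, and the *Herpud1* ratio of *VP* replicate 1 lies above all other tumors.

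The sensors upstream of these genes were also measured. Counts at an unadjusted p-value under 0.05 in this and the following lists stand against 682 higher and 1210 lower of the 15117 genes tested. Of 13 genes for stress sensors and eIF2alpha control, all tested, 0 passed the adjustment, 1 was lower and none higher at an unadjusted p-value under 0.05, and the median log2 fold change was -0.07. *Eif2ak3*, which encodes PERK, was at 25.3, 30.2 and 24.1 TPM in *Trp53fl/fl* tumors and at 22.6, 19.2 and 18.8 TPM in *VP* tumors. The genotypes did not overlap, and the difference on the log2 scale was -0.37 (limma adjusted p = 0.353). *Ern1*, which encodes IRE1alpha, was at 17.8, 16.4 and 17.6 TPM against 15.6, 14.1 and 14.1 TPM, again without overlap (log2 fold change -0.23, limma adjusted p = 0.445). Every *VP* tumor was below every *Trp53fl/fl* tumor for 4 of the 13 genes, and for 2011 of the 15117 genes tested.

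Of 18 partners of ATF4 and stress-induced regulators, 17 were tested and none passed the adjustment, with 2 lower and 1 higher at an unadjusted p-value under 0.05 and a median log2 fold change of 0.05. The genes with lower values were *Bbc3* and *Sesn2*, which are known targets of p53 as well as of stress factors. The part of either in their values was not tested. *Bbc3*, which encodes the death protein PUMA, was at 10.6, 12.1 and 12.1 TPM in *Trp53fl/fl* tumors and at 5.01, 6.92 and 5.30 TPM in *VP* tumors (log2 fold change -0.91, limma adjusted p = 0.123). *Sesn2*, which encodes a leucine sensor that restrains mTORC1, was at 10.7, 10.6 and 10.9 TPM against 7.16, 8.70 and 7.41 TPM (log2 fold change -0.43, limma adjusted p = 0.317). For both genes the lowest tumor was *VP* replicate 1, in which *Chac1*, *Trib3* and *Ddit3* were highest. The gene with higher values, named after its values were seen, was *Batf2* (log2 fold change 0.65, limma adjusted p = 0.323). *Fgf21* was below the filter.

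Genes of amino acid supply showed no common direction. Of 19 transporters and synthesis enzymes 18 were tested, 0 passed the adjustment, and 3 were lower and none higher at an unadjusted p-value under 0.05, with a median of 0.06. *Pycr1*, a mitochondrial enzyme of proline synthesis, was at 83.2, 82.5 and 86.2 TPM in *Trp53fl/fl* tumors and at 65.8, 45.4 and 65.7 TPM in *VP* tumors (log2 fold change -0.52, limma adjusted p = 0.317). *Slc38a2*, which carries small neutral amino acids, was at 80.6, 78.7 and 74.2 TPM against 58.1, 64.9 and 66.0 TPM (log2 fold change -0.30, limma adjusted p = 0.338). *Slc7a11*, the cystine carrier, named after its values were seen, differed by -0.50 on the log2 scale (limma adjusted p = 0.341). These 3 of the 18 were without overlap between the genotypes, and 19.3% of all genes tested were. *Asns* overlapped and had a log2 fold change above 0.

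None of the 12 aminoacyl-tRNA synthetases had an unadjusted p-value under 0.05, and their median log2 fold change was 0.05. *Iars* and *Cars*, the isoleucine and cysteine enzymes, had the lowest p-values of this list, at -0.19 and 0.22 on the log2 scale (limma adjusted p = 0.479 and 0.528).

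Differences among genes of the ER machinery were small. Of 19 chaperones and folding enzymes none had an unadjusted p-value under 0.05, and their log2 fold changes ran from -0.22 to 0.18 with a median of 0.02. *P4hb*, a protein disulfide isomerase, was at 559, 473 and 577 TPM in *Trp53fl/fl* tumors and at 585, 610.4 and 573 TPM in *VP* tumors (log2 fold change 0.14, limma adjusted p = 0.616). *Calr*, the lectin chaperone calreticulin, differed by 0.15 on the log2 scale (limma adjusted p = 0.620). *Trp53fl/fl* replicate 3, the tumor with the least *Hspa5*, held the lowest level of 6 of these 19 genes, and of 11.2% of all genes tested. *Trp53fl/fl* replicate 2, the tumor with the most *Hspa5*, also held the lowest level of 6 of them, and of 20.4% of all genes tested. The summed TPM of the 19 genes in *Trp53fl/fl* replicate 3 (3985) was inside the range of the other tumors (3956 to 4454).

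Of 23 genes of ER-associated degradation and translocation none had an unadjusted p-value under 0.05, and the median was -0.06. *Herpud2*, a relative of *Herpud1*, differed by -0.21 on the log2 scale (limma adjusted p = 0.450). *Edem3*, which trims the sugars of misfolded glycoproteins, was at 20.6, 22.9 and 12.8 TPM in *Trp53fl/fl* tumors and at 15.1, 13.9 and 10.9 TPM in *VP* tumors (log2 fold change -0.44, limma adjusted p = 0.466). Its *Trp53fl/fl* tumors had the order of *Dnajb9*, with replicate 3 well below the other 2.

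**Figure D5:**
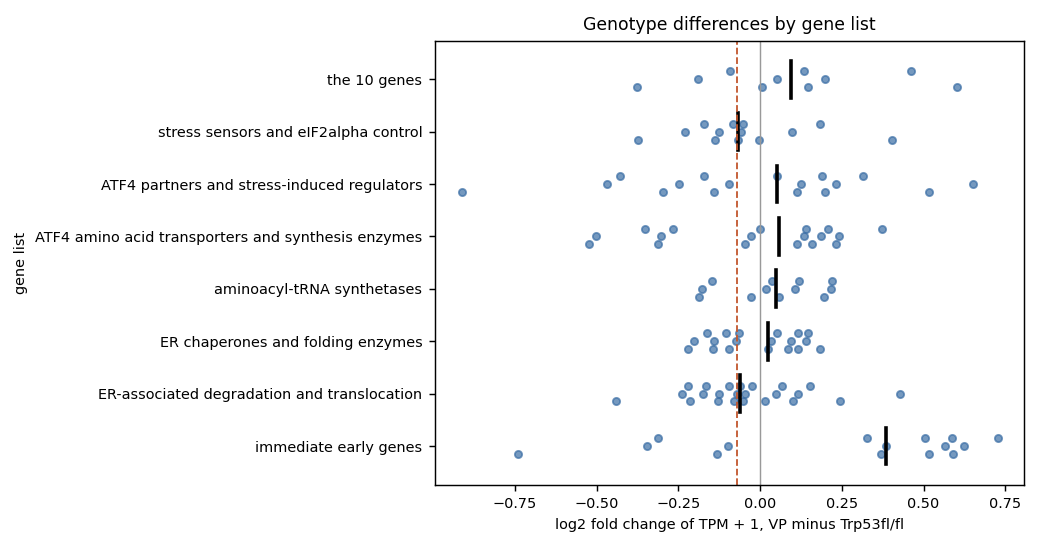
Log2 fold changes of TPM + 1 (horizontal axis, *VP* minus *Trp53fl/fl*) of every tested gene in 8 lists, 1 point per gene, with the median of each list as a black bar and the median of all genes tested as a dashed line. The medians of the 7 stress-response lists lie between -0.07 and 0.09, and that of the immediate early genes at 0.39.

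*Atf3* is also an immediate early gene, so the other genes of that class were set beside it. Of 15 genes, 0 passed the adjustment, 3 were higher and 1 lower at an unadjusted p-value under 0.05, and the median log2 fold change was 0.39. *Nr4a1*, a nuclear receptor gene, was at 25.3, 20.0 and 26.6 TPM in *Trp53fl/fl* tumors and at 31.9, 41.3 and 36.4 TPM in *VP* tumors (log2 fold change 0.59, limma adjusted p = 0.278). *Zfp36*, which encodes an mRNA decay factor, differed by 0.52 on the log2 scale (limma adjusted p = 0.358). *Fos* and *Fosb*, which were singled out with their values known, differed by 0.62 and -0.74 on the log2 scale (limma adjusted p = 0.366 and 0.378). The log2 fold change of *Atf3* (-0.19) was thus on the other side of 0 from those of 10 of these 15 genes.

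Markers of cell types that could carry these transcripts were summed in each tumor, and their part in the results was not tested. The 12 epithelial markers summed to 11137 to 11575 TPM in *Trp53fl/fl* tumors and to 12653 to 13677 TPM in *VP* tumors. Not every marker differed: *Epcam* and *Cdh1* had log2 fold changes of 0.003 and 0.02. For 4 of the 12 every *VP* tumor was above every *Trp53fl/fl* tumor, as for 911 of the 15117 genes tested. The 10 goblet cell markers, *Muc2* and *Tff3* among them, summed to 8168 to 9806 TPM and 8620 to 12253 TPM, and the 10 plasma cell markers, *Jchain* and *Mzb1* among them, to 804 to 1109.5 TPM and 750.3 to 1260.3 TPM. *Trp53fl/fl* replicate 3, with the least *Hspa5* and *Dnajb9*, had the lowest *Trp53fl/fl* sum of plasma cell markers (804 TPM) and the highest *Trp53fl/fl* sum of goblet cell markers (9806 TPM). *VP* replicate 1, with the most *Herpud1*, had the highest sum of plasma cell markers (1260.3 TPM), and *VP* replicate 2, with 96.6 TPM of *Herpud1*, the next (1197 TPM). The order of these 2 sums did not hold for each marker, as each tumor was the highest for 4 of the 10. *Sdc1*, named after its values were seen, was at 332 TPM in *VP* replicate 1 and at 241 TPM in *VP* replicate 2. Without *Sdc1* the order of the 2 sums would be reversed. *Derl3* is on this list and also on that of the degradation genes. *Jchain* was at 803 TPM in *VP* replicate 1 and at 809 TPM in *VP* replicate 2, and *Mzb1* at 34.2 and 54.3 TPM. The sum of the 10 neutrophil markers, *S100a8* and *S100a9* among them, was higher in every *VP* tumor (493 to 1109 TPM against 1610.1 to 2673 TPM). For 7 of the 10 every *VP* tumor was above every *Trp53fl/fl* tumor, as for 911 of the 15117 genes tested. Of the 10 markers 1, *Ngp*, named after its values were seen, passed the adjustment (log2 fold change 4.37, limma adjusted p = 0.0080). At an unadjusted p-value under 0.05, 8 neutrophil, 4 epithelial and 2 macrophage markers were higher in *VP* tumors, and 1 goblet cell and 2 fibroblast and muscle markers were lower. No plasma cell marker passed. Of the 15117 genes tested, 682 were higher and 1210 lower at this threshold. *Camp*, also named after its values were seen, was listed at 0 in all *Trp53fl/fl* tumors, and no other marker was at 0. Sums of 8 macrophage markers, *Cd68* and *Csf1r* among them, ran from 1176 to 1271.5 TPM and from 1026 to 1442 TPM, and those of 9 fibroblast and muscle markers, *Col1a1* and *Col1a2* among them, from 1083 to 1220.0 TPM and from 1040.0 to 1528 TPM.

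Genes with profiles closest to those of 3 of the factors were picked by the root mean square difference of centred log2(TPM + 1) over the 6 tumors, among 10846 other named genes with a mean of at least 5 TPM. For *Atf4* they were *Coro7*, *Agrn* and *Ppat* (0.04, 0.04 and 0.05), for *Xbp1* they were *Slc25a3*, *Cwf19l1* and *Ubl4a* (0.03, 0.04 and 0.04), and for *Ddit3* they were *Ing2*, *Gsta3* and *Prss23* (0.09, 0.10 and 0.10). None of these 9 genes is on the stress-response lists. *Ing2*, the closest to *Ddit3*, was at 14.1, 17.3 and 11.1 TPM in *Trp53fl/fl* tumors and at 20.1, 11.9 and 14.2 TPM in *VP* tumors. Its highest and lowest tumor were the same as for *Ddit3*, which picking by closeness over 6 tumors among 10846 genes favours.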

How the data were processed

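RNA-seq of 6 tumors was analysed, 1 library per tumor, with no statement beyond the replicate numbers that they came from separate mice. The authors selected poly(A) RNA, made paired-end TruSeq libraries and deposited TPM values for each gene, with 2 decimals. The submitters' processing notes name HISAT2, StringTie and mm9, without versions, and the annotation is not given in the sources used here. TPM keep no read counts, so depth is unknown. Columns were assigned through the codes in the labels.

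The 15117 genes that reached 1 TPM in 3 or more tumors were tested on log2(TPM + 1) with limma 3.58.1 in R 4.3.3 (empirical Bayes with trend, two-sided, Benjamini-Hochberg adjustment over all genes tested, threshold 0.05). Lists were described by counts and medians, and ratios by exact permutation tests. The limma step was tested on simulated data. Figures were drawn with matplotlib 3.10.9.

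The members and lists were chosen with earlier results of these data known. Named genes are the 10 members, *Trp53*, the 2 lowest p-values of each stress list, the first 2 of each marker list and the 3 closest profiles of *Atf4*, *Ddit3* and *Xbp1*. *Batf2*, *Slc7a11*, *Fos*, *Fosb*, *Sdc1*, *Ngp* and *Camp* were named after their values were seen, and genes below the filter or with a motif are named as such. Alternatives were a pseudocount of 0.1, no filter, a filter at a mean of 5 TPM, quantile normalization, rescaling by medians of ratios, the replicate number as a block, no trend, and each tumor left out.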

Additional observations from a re-analysis of the deposited data

How the results depend on the processing

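None of the 10 genes passed the limma adjustment under any alternative. At an unadjusted p-value under 0.05, 2 (*Hspa5* and *Dnajb9*) passed without *Trp53fl/fl* replicate 3 and 2 (*Chac1* and *Trib3*) without *VP* replicate 3, and none under the other alternatives. With a mean of at least 5 TPM, *Chac1* and *Trib3* were not tested. The log2 fold change of *Atf4* turned to -0.031 with quantile normalization.

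With a tumor left out, log2 fold changes ran from -0.096 to 0.082 for *Atf4*, -0.11 to 0.30 for *Ddit3*, -0.11 to 0.29 for *Herpud1*, -0.34 to 0.048 for *Hspa5* and -0.036 to 0.15 for *Xbp1*. The log2 ratios ran from -0.10 to 0.35 for *Ddit3* to *Atf4*, -0.054 to 0.47 for *Herpud1* to *Hspa5*, -0.055 to 0.14 for *Xbp1* to *Atf4* and -0.34 to -0.23 for *Dnajb9* to *Hspa5* and 0.054 to 0.29 for *Asns* to *Atf4*, the median of the 10 genes from -0.075 to 0.18, and the median of the ATF4 partners and regulators from -0.13 to 0.22. The cause was not tested.

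Over all genes, 25 calls became 7 without the filter and 6 to 28 with a tumor left out. They became 10 with the replicate block, which changed no call among the 10 genes, and the same-numbered tumors did not deviate together (correlations of 0.0185, -0.052 and 0.0175 across genes).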
